A study of Mus musculus with 6 samples.

Results

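The Hox clusters are described here through every row of the deposited gene table whose symbol starts with Hoxa, Hoxb, Hoxc or Hoxd. That rule gave 46 of 54532 genes, of which 40 are protein-coding rows and 6 are antisense or host transcripts named after a Hox gene. The Hoxa cluster lies on chromosome 6 (52155590 to 52260880) with 11 coding and 3 antisense or host rows, and the Hoxb cluster on chromosome 11 (96194316 to 96368256) with 10 and 2. The Hoxc cluster lies on chromosome 15 (102921103 to 103036852) with 9 coding rows, and the Hoxd cluster on chromosome 2 (74668310 to 74765142) with 10 coding rows and 1 antisense row. All coordinates are GRCm38. The symbol Hoxd4 stands on 2 overlapping rows, ENSMUSG00000101174 and ENSMUSG00000115956, which were kept apart.

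P19 is a mouse embryonal carcinoma line that gives rise to neural cells under retinoic acid. All 6 libraries come from P19 cells after 5 days of all-trans retinoic acid. In the NC group 3 cultures had been transfected with a negative control siRNA, and in the Baf45d group 3 had been transfected with an siRNA against Baf45d (gene symbol Dpf2), whose product belongs to BAF, a complex that moves nucleosomes. The study asks how this subunit bears on early neural differentiation. The siRNA was transfected transiently, into a tumour-derived line, and no library of cells without retinoic acid is among the 6, so induction of a Hox gene was not measured.

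Hox genes encode homeodomain transcription factors that give cells their position along the head-to-tail axis. Within a cluster they lie in the order of their paralogue numbers: low numbers are active early and reach far forward, into the hindbrain, and high numbers are active late and further back, towards the tail. Retinoic acid opens the clusters from the low-numbered end, through receptor-bound elements near genes such as Hoxb1 and Hoxb4. Polycomb proteins hold the remaining genes silent, and Hox proteins bind DNA with Pbx and Meis partners. Antisense and host transcripts run through the clusters on the opposite strand, and several microRNAs are encoded between the coding genes.

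Libraries held 17127876 to 21224822 counts. Dpf2 itself stood at 23.6 to 24.1 FPKM in the NC libraries and 21.6 to 22.7 FPKM in the Baf45d libraries without overlap (log2 fold change -0.10, SE 0.07, edgeR adjusted p = 0.996), which passed no test, and groups are named as labelled. FPKM is counts per kilobase of gene length and per unit of library depth. The summed FPKM of 6 neuron markers was 163.6 to 182.3 in the NC group and 146 to 242.5 in the Baf45d group, and that of 6 neural progenitor markers was 138.4 to 155.4 and 152.9 to 163.1. Of 6 pluripotency markers, Zfp42 and Dppa5a had 0 counts in every library, while Pou5f1 had 405 counts over the 6 libraries, Nanog 188, Esrrb 137 and Tdgf1 108. Of 6 extraembryonic and endoderm markers, Afp had 0 counts, whereas Gata6 stood at 9.035 to 13.27 FPKM and Gata4 at 1.113 to 1.851 FPKM. Baf45d replicate 3 stands apart from Baf45d replicates 1 and 2 for most Hoxb and Hoxc genes, but not for the Hoxd genes, as detailed with the siRNA comparison.

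The DNA upstream of Hoxb1 and of Hoxb8 is shown here. Hoxb1 was the coding gene with the largest relative difference between the groups among the tested members, and Hoxb8 was among the most abundant. Whether these sequences bear on either value was not tested. Both upstream sequences hold a match to TGATNNAT, a sequence bound by Pbx and Hox proteins together. The mouse Hoxb1 regulatory region is a classical example of it. The 250 bases before each annotated start are shown from RefSeq (GRCm38.p6), 5′ to 3′ on the plus strand, with the match in capitals. Hoxb1 is at chr11:96365508-96365757 and Hoxb8 at chr11:96281655-96281904.
Hoxb1: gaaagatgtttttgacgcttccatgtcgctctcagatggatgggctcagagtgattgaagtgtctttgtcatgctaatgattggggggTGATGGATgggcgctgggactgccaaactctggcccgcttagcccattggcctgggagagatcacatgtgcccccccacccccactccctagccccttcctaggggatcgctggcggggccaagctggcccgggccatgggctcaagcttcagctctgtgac
Hoxb8: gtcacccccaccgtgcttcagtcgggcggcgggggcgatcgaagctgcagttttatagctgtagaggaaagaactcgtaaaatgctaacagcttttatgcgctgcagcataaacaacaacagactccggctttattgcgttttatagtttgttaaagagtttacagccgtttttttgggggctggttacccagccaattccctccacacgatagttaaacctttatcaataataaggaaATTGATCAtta

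The match begins at base 89 of the Hoxb1 window and at base 240 of the Hoxb8 window, where it lies in the reverse orientation. RefSeq promoter windows, from 250 bases before to 50 after a start, were found for 25 member symbols (27 windows). On either strand, TGATNNAT occurred in 4 of these 27 windows (14.8%, at Hoxa2, Hoxb1, Hoxb8 and Hoxd11) and in 8.85% of all 32851 windows of that length. AGGTCA, the core sequence bound by retinoic acid receptors, occurred in 7 of 27 (25.9%) against 16.3% of all windows. CCAAT occurred in 15 of 27 (55.6%) against 37.4%. The median ratio of observed to expected CpG was 0.657 in the Hox windows and 0.384 in all windows, with a GC content of 58% and 52.7%. The windows with TGATNNAT belong to genes at both ends of the range of levels, from Hoxb8 to Hoxd11 (0.101 FPKM over the 6 libraries). The window of Hoxa5, at a mean of 203.2 FPKM, held 0 matches. The receptor core sequence was found at Hoxb4 but not at Hoxb1. DR5, a spaced direct repeat of that core sequence, occurred in 0 of the 27 Hox windows and in 3 of all 32851 windows (0.00913%). The repeat is too rare for a comparison, and the share of windows with the core sequence alone does not measure receptor sites. These motif counts are descriptions of letters, not of binding.

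**Figure D1:**
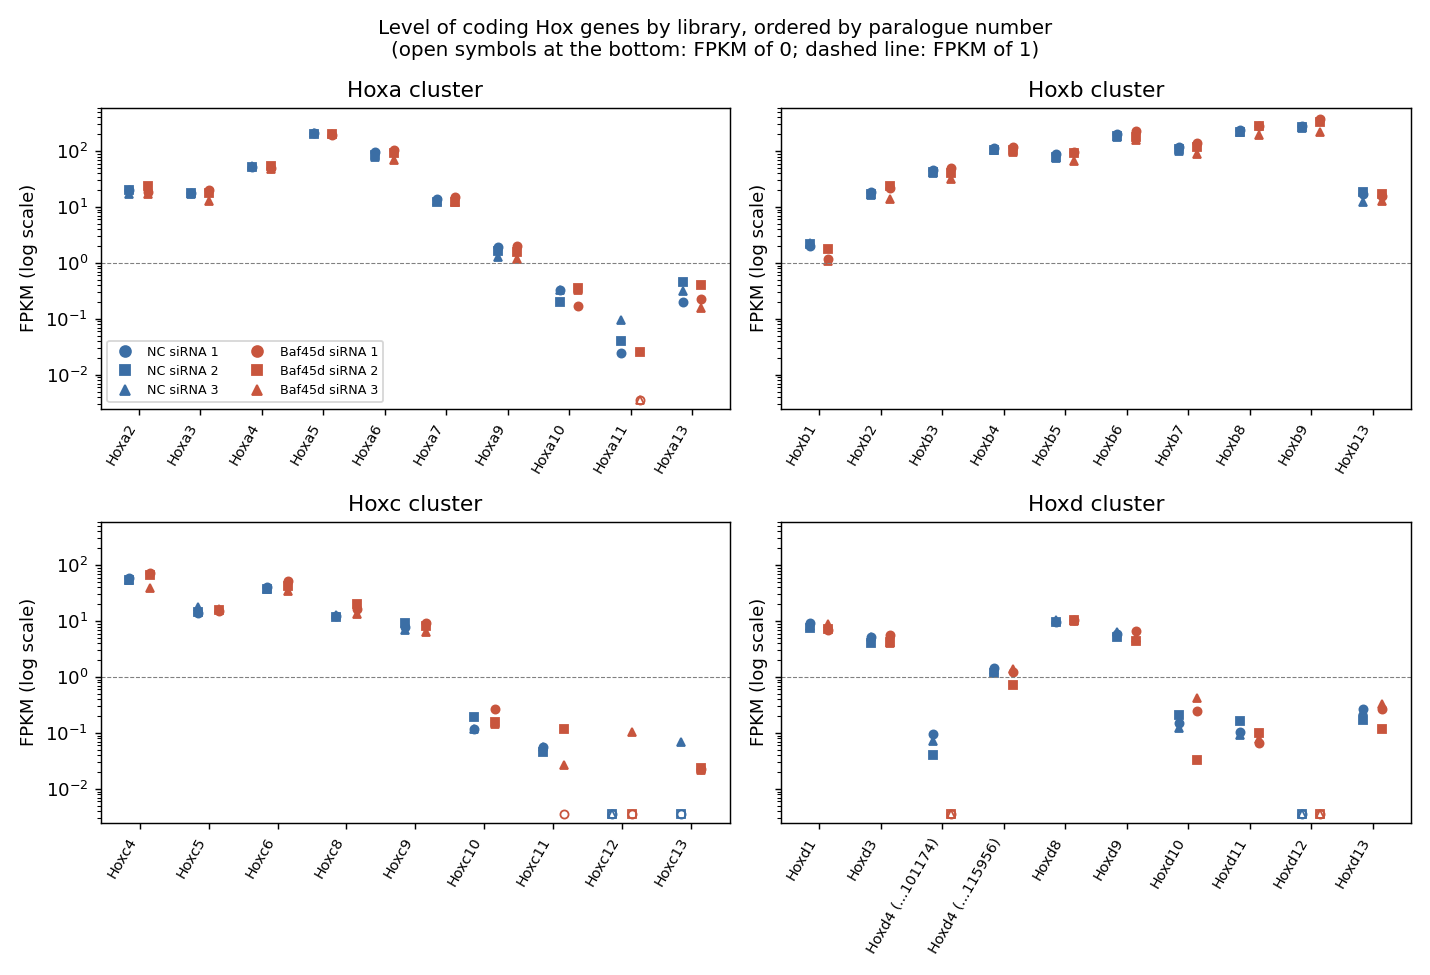
Each point is the FPKM (log scale) of 1 coding Hox gene in 1 library, in 4 panels for the 4 clusters with genes ordered by paralogue number; blue marks NC siRNA, red Baf45d siRNA, and the symbol the replicate. Levels reach 367 FPKM up to group 9 and no more than 0.454 FPKM from group 10 on, Hoxb13 excepted, and the colours mostly lie on top of each other.

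Most coding Hox genes of groups 1 to 9 were present, the Hoxb cluster at the highest level. Taking a mean of at least 1 FPKM in a group as detected, 28 of 40 coding rows were detected: 8 of 11 in Hoxa, 10 of 10 in Hoxb, 5 of 9 in Hoxc and 5 of 10 in Hoxd, with equal numbers under both siRNAs. Hoxb supplied 64.7% of the summed coding FPKM in the NC group, Hoxa 25.45%, Hoxc 7.94% and Hoxd 1.88%. Hoxb9 ranked 96 of all 54532 genes by mean FPKM, Hoxb8 139, Hoxa5 164 and Hoxb6 178.

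In the Hoxb cluster genes of a higher paralogue number mostly stood at a higher level, from group 1 to group 9. The posterior patterning gene Hoxb9 (ENSMUSG00000020875, chromosome 11, 96271457 to 96276595, plus strand) stood at 286, 270.3 and 262 FPKM in the NC libraries and 367, 337 and 218 FPKM in the Baf45d libraries. Its neighbour Hoxb8 stood at 239, 219 and 218 FPKM and at 278, 279 and 191 FPKM. Hoxb6 stood at 200, 185 and 176 FPKM and at 228, 181 and 156 FPKM. In each of the 3 genes the NC values lay inside the range of the Baf45d values, whose lowest library was replicate 3. Hoxb7 and Hoxb4 averaged 110.2 and 107 FPKM in the NC group, Hoxb5 80.9, Hoxb3 43.1, Hoxb2 17.5 and Hoxb1 2.13 FPKM. Over the 6 libraries the ranges of Hoxb9 and Hoxb8 overlapped, as did those of Hoxb8 and Hoxb6, of Hoxb7 and Hoxb4, and of Hoxb2 and Hoxb13, and the remaining neighbours in the order of levels were apart. The Spearman correlation of level with paralogue number over the 9 Hoxb genes of groups 1 to 9 was 0.967, given as a description of genes that share libraries.

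The Hoxa cluster had its peak in the middle. Hoxa5, which patterns the neck and upper trunk, stood at 211, 205 and 210.0 FPKM in the NC libraries and at 194, 198 and 200.5 FPKM in the Baf45d libraries, and alone made 50% of the summed Hoxa level. Hoxa6 stood at 96.9, 86.5 and 79.7 FPKM and at 106, 90.9 and 70.1 FPKM. Hoxa4 stood at 52.6, 52.9 and 54.4 FPKM and at 49.0, 53.1 and 48.3 FPKM. The ranges of these 3 genes over the 6 libraries were apart from each other and from the rest of the cluster. Hoxa2, Hoxa3 and Hoxa7 averaged 13.02 to 19.2 FPKM in the NC group, and the ranges of Hoxa2 and Hoxa3 overlapped. Hoxa9 averaged 1.59 FPKM. The correlation with paralogue number over the 8 genes of groups 1 to 9 was -0.214.

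The Hoxc and Hoxd clusters were lower. Hoxc4 stood at 57.8, 54.2 and 54.7 FPKM with NC siRNA and at 71.7, 66.0 and 39.4 FPKM with Baf45d siRNA. Hoxc6, which marks the forelimb level of the spinal cord, stood at 40.5, 36.8 and 38.0 FPKM and at 51.6, 42.3 and 34.4 FPKM. Hoxc5 stood at 14.2, 14.7 and 17.9 FPKM and at 15.4, 15.7 and 16.4 FPKM. Hoxc4 and Hoxc6 were lowest in Baf45d replicate 3, whereas Hoxc5 was lowest in NC replicate 1. Hoxc9, the thoracic counterpart of Hoxc6, stood at 7.84, 9.07 and 6.99 FPKM and at 9.44, 8.34 and 6.31 FPKM, so the groups overlapped. The Hoxc5 row reaches from Hoxc10 across Hoxc9, Hoxc8 and Hoxc6, and shares 5.37% of its exon bases with Hoxc10 on the same strand. Over the 5 Hoxc genes of groups 4 to 9, a higher paralogue number went with a lower level (Spearman -0.9).

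In the Hoxd cluster the highest mean over the 6 libraries was 10.1 FPKM, that of Hoxd8. Hoxd8 stood at 9.73, 9.59 and 10.3 FPKM in the NC libraries and at 10.5, 10.7 and 9.88 FPKM in the Baf45d libraries. Hoxd1, a paralogue of Hoxb1, stood at 9.16, 7.68 and 8.25 FPKM and at 7.02, 7.23 and 8.84 FPKM. Hoxd9 stood at 5.89, 5.23 and 6.39 FPKM and at 6.78, 4.37 and 5.06 FPKM. All 3 overlapped between the groups. Hoxd3 averaged 4.87 FPKM in the NC group, and 62.85% of its exon bases are shared with other genes. Of the Hoxd4 rows, ENSMUSG00000115956 averaged 1.31 FPKM, and ENSMUSG00000101174 had 4, 2 and 3 counts in the NC libraries and 0 in each Baf45d library. The rows overlap, and 49.1% of the sequence of ENSMUSG00000101174 (stretches of 31 bases) occurs in transcripts of other genes, so how reads were divided between them is uncertain.

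Levels from group 10 on were far below most of those up to group 9, with 1 exception. In Hoxa the NC mean had already fallen from 13.02 FPKM at Hoxa7 to 1.59 FPKM at Hoxa9, and Hoxb holds no group 10 gene. The 11 coding rows of groups 10 to 13 other than Hoxb13 had means of 0 to 0.293 FPKM over the 6 libraries and summed to 1.4 FPKM. Hoxa13, which patterns the limb tip and the urogenital tract, stood at 0.203, 0.454 and 0.315 FPKM in the NC libraries and at 0.228, 0.406 and 0.154 FPKM in the Baf45d libraries. Hoxd13, its partner in the limb, stood at 0.269, 0.169 and 0.247 FPKM and at 0.272, 0.119 and 0.328 FPKM. Both are near the limit of what these depths count, at 7 to 24 counts a library for Hoxa13 and 5 to 15 for Hoxd13. Hoxd12 and the antisense row Hoxa11os had 0 counts in all 6 libraries, which allows up to 0.0107 FPKM and 0.00884 FPKM when 3 counts over the 6 libraries are taken as the limit of a count of 0. These limits cover counting error only.

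Hoxb13, the group 13 gene of the Hoxb cluster and known for its activity in the tail bud and the prostate, was far above the other genes of groups 10 to 13. Hoxb13 (ENSMUSG00000049604, chromosome 11, 96194316 to 96197447, plus strand) stood at 17.0, 18.5 and 12.5 FPKM in the NC libraries and at 15.5, 17.4 and 13.1 FPKM in the Baf45d libraries. The groups overlapped, and both replicates numbered 3 were the lowest of their group. Its mean over the 6 libraries, 15.7 FPKM, was 53.4 times that of the next highest of these genes, Hoxa13, and 11.2 times the sum of all 11. The row rests on 497 to 872 counts a library, and 0% of its sequence in stretches of 31 bases occurs in transcripts of other genes. Hoxb13 lies 74009 bases from Hoxb9, whereas the other 8 gaps between neighbouring Hoxb genes measure 1307 to 12145 bases.

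**Figure D2:**
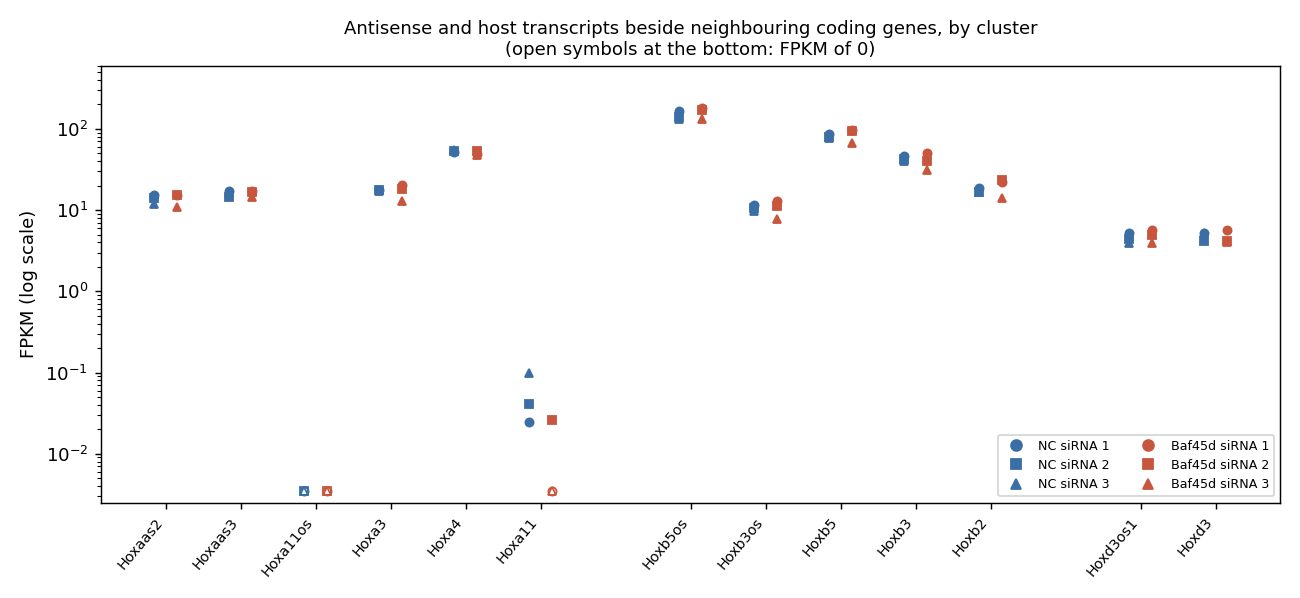
Each point is the FPKM (log scale) of an antisense or host transcript, or of a coding gene near it, in 1 library, grouped by cluster from Hoxa to Hoxd. Hoxb5os lies above Hoxb5 in all 6 libraries, and Hoxa11os is at 0. The remaining detected antisense rows lie near or under the coding genes drawn for their cluster, Hoxa11 excepted. Hoxa7 and Hoxb6 are not drawn.

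The most abundant transcript named antisense to a Hox gene was Hoxb5os (ENSMUSG00000085645, chromosome 11, 96291024 to 96306910, minus strand). It stood at 165, 138 and 131 FPKM in the NC libraries and at 183, 169.9 and 131 FPKM in the Baf45d libraries, and ranked 218 of 54532 genes. Its FPKM was 1.71 to 1.96 times that of Hoxb5 in the same library, above it in 6 of 6 libraries. Hoxb5os stood at 0.743 to 0.937 of the FPKM of Hoxb6, which lies within its span. It shares 100 exon bases with Hoxb5, 14.37% of its own exons. The strand used in counting is not given in the sources used here, so reads in shared bases cannot be assigned to a strand.

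Apart from Hoxa11os, at 0 counts, the other antisense rows stood at 3.9 to 17.2 FPKM. Hoxb3os stood at 11.6, 10.5 and 9.68 FPKM with NC siRNA and at 13.03, 11.3 and 7.74 FPKM with Baf45d siRNA, or 0.239 to 0.279 of Hoxb3 in the same library. It shares 53.56% of its exon bases with Hoxb3 and 22.69% with Hoxb2 on the opposite strand, so its level is the least certain of the antisense rows. Hoxaas3 stood at 17.2, 14.5 and 16.0 FPKM and at 17.0, 16.8 and 14.4 FPKM. Hoxaas2 stood at 15.3, 14.2 and 11.9 FPKM and at 15.4, 15.2 and 10.8 FPKM. Both kept close to Hoxa3, which they overlap, at 0.828 to 1.12 and 0.696 to 0.871 of its FPKM. Hoxaas3 stood at 1.12 to 1.37 of the FPKM of Hoxa7, with which it shares 20.28% of its exon bases. Hoxd3os1 stood at 5.30, 4.38 and 3.90 FPKM and at 5.69, 5.00 and 3.94 FPKM, or 0.741 to 1.19 of Hoxd3. Hoxd3 shares 53.09% of its exon bases with Gm28230 on the same strand, so the level in this ratio is uncertain too. The groups overlapped in each of the 5 antisense rows. Of 45 members found in GENCODE M21, 22 share exon bases with another gene and 16 of them with a gene on the opposite strand, 4 over at least 50% of their exons.

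Other noncoding RNAs inside the clusters spanned a wide range. Hotairm1, a noncoding RNA of the Hoxa cluster, stood at 50.1, 43.4 and 37.4 FPKM in the NC libraries and at 39.5, 29.8 and 34.2 FPKM in the Baf45d libraries, with some overlap. Hottip, beside Hoxa13, had 2 counts and Hotair, in the Hoxc cluster, 1 count over all 6 libraries. Of the microRNA rows, Mir10a upstream of Hoxb4 had 695 counts over the 6 libraries and Mir196a-1 between Hoxb13 and Hoxb9 had 183, while Mir10b in the Hoxd cluster had 45 and Mir196b and Mir196a-2 had 0. These are reads over the precursor in a library of long RNA and do not measure the mature microRNA. The mature 5p sequences from RefSeq (GRCm38.p6) are shown because the rows pair by seed across clusters, with the seed (bases 2 to 8) in capitals.
miR-10a-5p: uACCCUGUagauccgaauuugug
miR-10b-5p: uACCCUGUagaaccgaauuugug
miR-196a-5p: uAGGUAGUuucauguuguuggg
miR-196b-5p: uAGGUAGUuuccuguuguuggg

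The seed ACCCUGU is shared by miR-10a (Hoxb cluster) and miR-10b (Hoxd cluster), and the seed AGGUAGU by miR-196a (Hoxb and Hoxc clusters) and miR-196b (Hoxa cluster). In both pairs the row with most counts was that of the Hoxb cluster, which also held most of the coding FPKM. For Mir196b this order does not compare transcription. Its exon bases are 100% shared with Hoxa9 on the same strand, and how reads in shared bases were assigned is not given in the sources used here. Mir10b lies within the span of the Hoxd4 row ENSMUSG00000115956. The exons of that row were not compared, so the order of Mir10a and Mir10b is uncertain too.

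No Hox cluster member differed between Baf45d and NC siRNA past the threshold. Of the 46 members, 36 passed the filter on low counts and were tested within all 16078 genes, and 10, with 0 to 48 counts over the 6 libraries, were not. In edgeR's quasi-likelihood test 0 of 36 had an adjusted p under 0.05 (adjusted p from 0.996 to 0.999), against 0% of all genes, of which 459 had an unadjusted p under 0.05. DESeq2 and limma-voom also called 0 members. At an unadjusted p under 0.05 there were 2 of 36 members (5.56%), 1 higher and 1 lower, where 2.85% of all genes tested had such a p, 1.21% higher and 1.64% lower. The groups did not overlap for 3 members (8.33%), 1 higher and 2 lower, against 8.04% of all genes, 3.74% higher and 4.3% lower. The share without overlap was near the background, and the share by p rests on 2 genes. With the replicate number as a block there were again 1 higher and 1 lower member at an unadjusted p under 0.05, against 7.75% of all genes, 3.27% higher and 4.48% lower. That fit called 0 members and 1 gene in all (0.00622%).

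**Figure D3:**
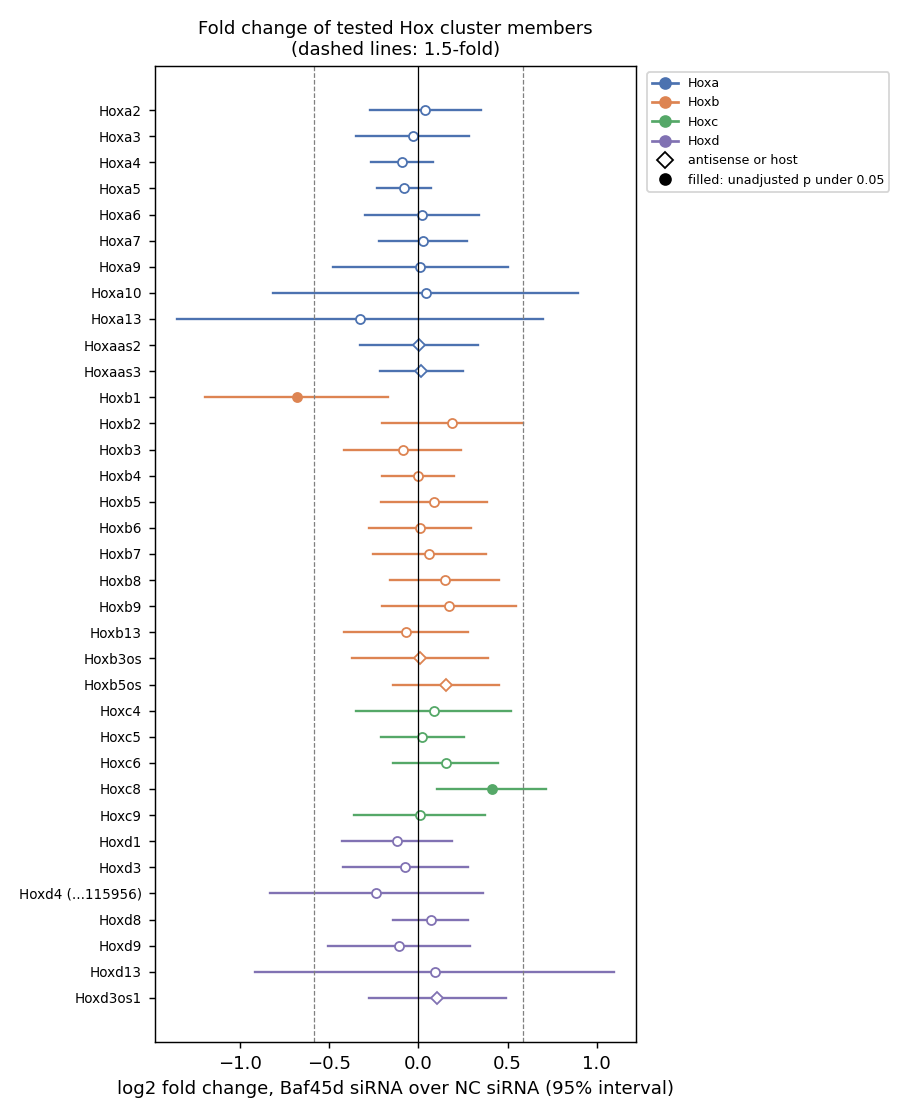
Points are edgeR log2 fold changes of Baf45d over NC siRNA for tested members and lines are 95% intervals, coloured by cluster, with diamonds for antisense or host transcripts and filled symbols for an unadjusted p under 0.05. The filled points are Hoxb1 at -0.68 and Hoxc8 at 0.41, and the other intervals drawn cross 0.

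Hoxc8 was the member with the smallest p among those with higher values. Hoxc8 (ENSMUSG00000001657, chromosome 15, 102990607 to 102994111, plus strand) is known for setting motor neuron and vertebral identity at the lower neck and thorax. It had 617, 733 and 660 counts in the NC libraries and 815, 956 and 694 counts in the Baf45d libraries, which is 12.1, 12.1 and 12.98 against 16.2, 19.9 and 13.3 FPKM. Each Baf45d library lay above each NC library, replicate 3 by the least. The log2 fold change was 0.41 (SE 0.14, 95% interval 0.10 to 0.72, edgeR unadjusted p = 0.0135, adjusted p = 0.996). Without Baf45d replicate 2 the unadjusted p was no longer under 0.05, with a log2 fold change of 0.26.

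Hoxb1 was the member with the smallest p among those with lower values. Hoxb1 (ENSMUSG00000018973, chromosome 11, 96365752 to 96368256, plus strand) gives a single hindbrain segment its identity and is switched on early by retinoic acid. It had 83, 108 and 93 counts in the NC libraries and 48, 69 and 46 counts in the Baf45d libraries, which is 1.99, 2.17 and 2.23 against 1.17, 1.75 and 1.08 FPKM. The highest Baf45d library stood under the lowest NC library. The log2 fold change was -0.68 (SE 0.23, 95% interval -1.19 to -0.17, edgeR unadjusted p = 0.0142, adjusted p = 0.996), and it ran from -0.92 to -0.55 when each library was left out in turn. Its paralogue Hoxd1 gave a log2 fold change of -0.12 (SE 0.14), and no test of the difference between them was made.

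The intervals of the members were about as wide as those of all genes tested, with a median SE of 0.142 against 0.136. Hoxa5 was the third member without overlap, with a log2 fold change of -0.08 (SE 0.07, 95% interval -0.23 to 0.07). Hoxa4 also stood at -0.09 (SE 0.08), Hoxc6 at 0.15 (SE 0.13), Hoxb5os at 0.15 (SE 0.13), Hoxb9 at 0.17 (SE 0.17) and Hoxb8 at 0.15 (SE 0.14), all with an edgeR adjusted p of 0.996. Log2 fold changes were positive for 24 members and negative for 12, with a median of 0.02 against 0.01 over all genes. Within 0.2 of 0 lay 32 of 36. Over all 16078 genes tested, 8352 were positive, 7726 were negative and 12202 lay within 0.2 of 0. The 95% interval lay within a 1.5-fold change either way for 29 of 36 members and within a 2-fold change for 33. The widest intervals belonged to rows of under 1 FPKM: Hoxa13 at -0.33 (-1.35 to 0.70), Hoxd13 at 0.09 (-0.91 to 1.10) and Hoxa10 at 0.04 (-0.81 to 0.89).

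**Figure D4:**
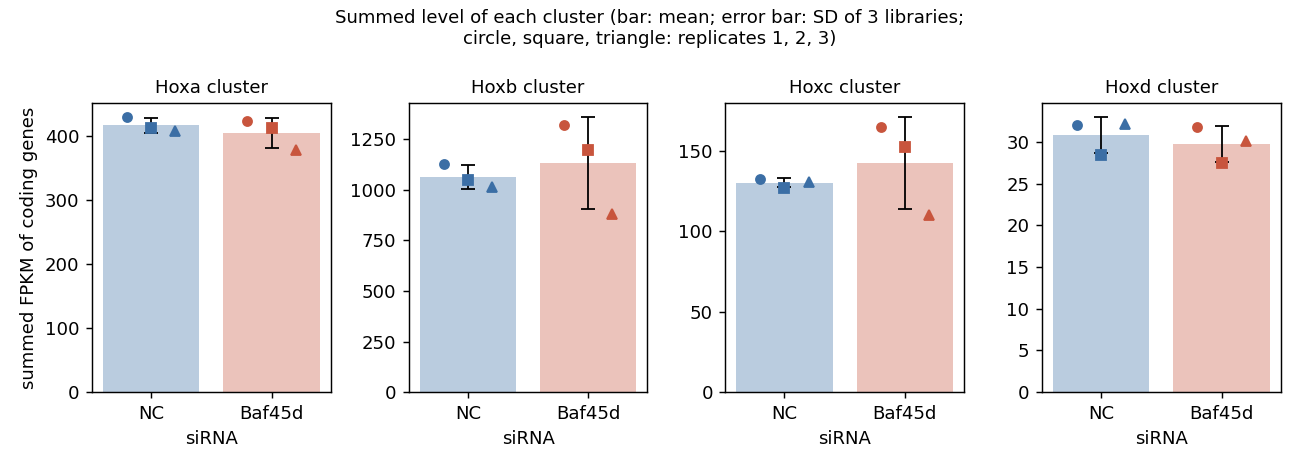
Bars are the mean summed FPKM of the coding genes of each cluster, error bars the SD of 3 libraries and points the libraries, on an axis from 0 in each panel. In Hoxb and Hoxc the Baf45d libraries spread on both sides of the NC libraries, with replicate 3 (triangle) lowest.

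The summed level of each cluster overlapped between the groups. The Hoxa genes summed to 430.2, 412.5 and 409.2 FPKM in the NC libraries and to 423.5, 413.9 and 379.4 FPKM in the Baf45d libraries. The Hoxb genes summed to 1126, 1047 and 1011 FPKM and to 1317, 1197 and 877.6 FPKM. The Hoxc genes summed to 132.6, 127.2 and 130.8 FPKM and to 164.6, 152.4 and 110.1 FPKM. In Hoxb and Hoxc, Baf45d replicates 1 and 2 were thus above every NC library and replicate 3 under every one. The Hoxd genes summed to 32.04, 28.39 and 32.07 FPKM and to 31.79, 27.43 and 30.04 FPKM, with no such split. The log2 ratio of the group means, with TMM scaling, was -0.04 for Hoxa, 0.09 for Hoxb, 0.13 for Hoxc and -0.05 for Hoxd, each smaller than the SD between libraries (0.0676, 0.226, 0.221 and 0.104 on the log2 scale). When each library was left out in turn, the ratio ran from -0.07 to 0.01 for Hoxa, -0.03 to 0.25 for Hoxb, 0.01 to 0.29 for Hoxc and -0.11 to 0.0026 for Hoxd. The highest values of Hoxa, Hoxb and Hoxc came without Baf45d replicate 3, the lowest without Baf45d replicate 1, and the highest of Hoxd without Baf45d replicate 2.

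**Figure D5:**
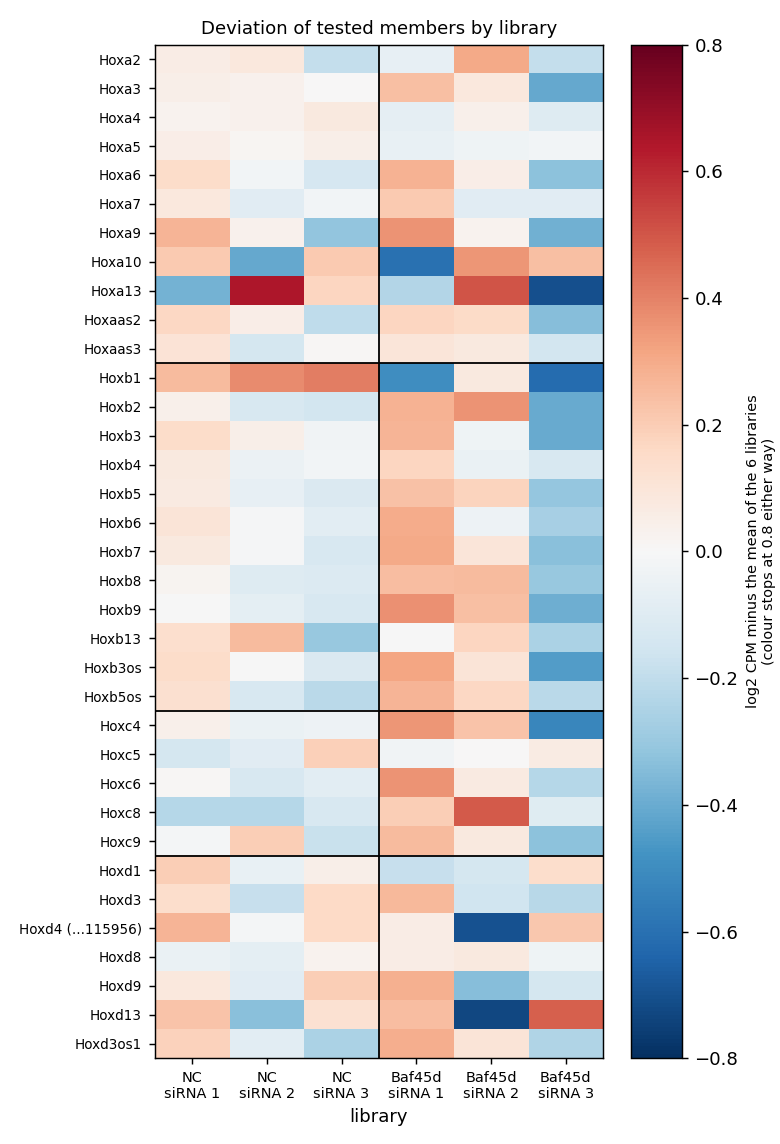
Colours show log2 CPM of tested members in each library minus its mean over the 6 libraries, with black lines between clusters and between the siRNA groups. Baf45d replicate 1 is mostly red and replicate 3 mostly blue from Hoxb2 to Hoxc6, whereas the Hoxd rows show no common pattern.

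The members varied together among the Baf45d libraries more than they varied between the groups. Baf45d replicate 3 was the lowest of the 6 libraries for 22 of 36 members (61.1%), where it was the lowest for 21.1% of all genes tested. This held for 9 of 10 coding Hoxb genes, 5 of 10 Hoxa, 3 of 5 Hoxc and 1 of 6 Hoxd genes, and for 4 of 5 antisense rows. Baf45d replicate 1 was the highest for 20 of 36 members (55.6%), against 20.5% of all genes. The median deviation of the members from their mean over the libraries was 0.08, -0.06 and -0.04 (log2) under NC siRNA and 0.24, 0.08 and -0.24 under Baf45d siRNA, in the order of the replicate numbers, while the median of all genes was 0.00 in each. The median coefficient of variation of the members was 8% among NC libraries and 20% among Baf45d libraries, and 8.08% and 13.1% over all genes. It was larger in the Baf45d group for 34 of 36 members (94.4%), against 72.1% of all genes.

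Without Baf45d replicate 3, 10 of 36 members had an unadjusted p under 0.05, against 13.3% of all genes. Of these, 9 were higher (6.14% of all genes were) and Hoxb1 was lower (7.12% were). The 9 were Hoxb2, Hoxb5, Hoxb7, Hoxb8, Hoxb9, Hoxb5os, Hoxc4, Hoxc6 and Hoxc8, with log2 fold changes from 0.222 to 0.545. None was called in edgeR, the lowest adjusted p being 0.0696 for Hoxc8, while 44 genes (0.269%) were called in all. Leaving out both replicates numbered 3, a choice made after seeing the data, gave 7 members, all higher, against 10.6% of all genes, 5.07% higher and 5.55% lower. There 0 members and 20 genes (0.124%) were called. Without Baf45d replicate 1, the signs of the members were 9 positive and 27 negative, against 24 and 12 with all libraries. The median log2 fold change in that fit was -0.0744 for the members and 0.00236 over all genes.

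The sums of several other gene lists were, like the Hoxb and Hoxc sums, highest in Baf45d replicate 1 and lowest in replicate 3 among the Baf45d libraries. The neuron markers summed to 242.5, 196.7 and 146 FPKM in Baf45d replicates 1, 2 and 3, and the neural progenitor markers to 163.1, 159.1 and 152.9 FPKM. Tubb3 alone gave 162.4, 119.2 and 93.97 FPKM of the neuron sum. Map2, Elavl4 and Stmn2 were highest in replicate 2, and every neuron marker was lowest in replicate 3. Among the progenitor markers, Nes rose, at 25.3, 26.7 and 44.8 FPKM, and Fabp7 rose too, while Sox1 and Cdh2 were highest in replicate 2. The 38 regulators of the clusters summed to 1208, 1065 and 952.1 FPKM, of which Cyp26b1 alone gave 638.3, 504.5 and 428.5 FPKM. The sums of other lists rose towards replicate 3. The forebrain and midbrain markers summed to 26.3, 27.1 and 31.87 FPKM, and the extraembryonic and endoderm markers to 10.39, 12.23 and 13.32 FPKM. The 6 neuron markers were all tested and had positive log2 fold changes, 1 at an unadjusted p under 0.05. Over all genes tested, 2.85% had such a p, 1.21% higher and 1.64% lower. The mesenchyme and matrix list (Col1a1, Col1a2, Col3a1, Postn, Thy1 and Twist1) summed to 159.9, 148.2 and 141.7 FPKM in the same order and to 140.8 to 191.6 FPKM in the NC group, with 1 of 6 genes, Postn, lower at an unadjusted p under 0.05. The 6 somite and mesoderm markers summed to 24.8 to 32.19 FPKM and 20.95 to 22.98 FPKM, with T at 3 counts and Meox2 at 5 counts over the 6 libraries. All 4 tested genes of that list had negative log2 fold changes (median -0.43), and 2 were lower at an unadjusted p under 0.05 without being called. These were Foxc2 (-0.77, edgeR unadjusted p = 0.00218) and Meox1 (-0.40, unadjusted p = 0.0145). The groups did not overlap for Foxc2 and Tbx6, and overlapped for Meox1. Over all genes tested, 4.3% were lower without overlap. The part of these cells in the Hox values was not tested. In bulk RNA, fewer cells of a type and less RNA per cell cannot be told apart.

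Genes that act on or beside the clusters also gave 0 calls. Over all genes tested, 1.21% were higher and 1.64% lower at an unadjusted p under 0.05. Among 20 other cluster transcripts and flanking genes in the table, 13 were tested, and 2 were lower at such a p. These were Hotairm1 (log2 fold change -0.34, SE 0.14, edgeR unadjusted p = 0.0318) and Evx1, the homeobox gene beside Hoxa13 (-0.80, SE 0.34, unadjusted p = 0.0399). Evx1 stood at 0.813, 0.828 and 0.736 FPKM with NC siRNA and at 0.529, 0.226 and 0.604 FPKM with Baf45d siRNA, without overlap. The flanking genes outside the clusters Skap2, Snx10, Skap1, Smug1, Calcoco1, Mtx2 and Lnpk had log2 fold changes from -0.003 (Smug1) to 0.14 (Lnpk), none at an unadjusted p under 0.05.

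Of 38 regulators of the clusters, 31 were tested, with 1 higher and 2 lower at an unadjusted p under 0.05. The shares over all genes tested were 1.21% higher and 1.64% lower. The retinoic acid receptor gene Rarg stood at 5.69, 5.31 and 4.10 FPKM in the NC libraries and 3.48, 3.69 and 4.13 FPKM in the Baf45d libraries (log2 fold change -0.42, SE 0.14, edgeR unadjusted p = 0.0157), and its groups overlapped. The Polycomb gene Bmi1 stood at 9.51, 10.3 and 10.9 FPKM and at 10.5, 13.2 and 13.6 FPKM (0.28, SE 0.11, unadjusted p = 0.0369). Of the Cdx genes, which drive posterior Hox genes in the embryo, Cdx1 had 49 counts, Cdx2 4 and Cdx4 16 over the 6 libraries and none was tested. Cyp26b1, which degrades retinoic acid, was at 545.6 ± 48.8 FPKM in the NC group and 523.8 ± 106 FPKM in the Baf45d group (SD, n = 3).

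The partners of Hox proteins were all present. All 9 cofactor genes were tested, with 0 at an unadjusted p under 0.05, 3 positive and 6 negative. Those with the smallest p were Pbx3 at 0.14 (SE 0.10), Pbx4 at -0.17 (SE 0.21) and Pknox2 at -0.06 (SE 0.15). Of 16 genes named as Hox protein targets in the hindbrain and spinal cord, 15 were tested and 0 had an unadjusted p under 0.05. Aldh1a2, which makes retinoic acid, came nearest, at 20.8, 23.1 and 19.7 FPKM and at 25.4, 28.1 and 22.0 FPKM (log2 fold change 0.24, SE 0.11, edgeR unadjusted p = 0.0508), and its groups overlapped. Next came Gata3 at -0.22 and Epha8 at 0.55.

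The authors' deposited table of the same comparison had an unadjusted p under 0.05 for 394 of 27064 genes (1.46%). The members among them in the authors' deposited table were again Hoxc8 (p = 0.00616) and Hoxb1 (p = 0.0148), both with an adjusted p of 0.9995. In the authors' deposited table of KEGG terms, 1 of 217 terms held a member, the term for signaling that regulates the pluripotency of stem cells, with Hoxb1 among 10 genes, 1 up and 9 down (p = 0.000501, adjusted p = 0.0362). The authors' deposited table of 455 protein pairs held Hoxb1 with Ifitm3 at a score of 457, and Hoxc8 with Egr1 at 713, with Smad7 at 696 and with Bptf at 436. All 223 genes of the pair table and all 132 genes of the KEGG table had an unadjusted p under 0.05 in the authors' deposited table, so these entries follow from the p-values above.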

How the data were processed

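RNA of 6 P19 cultures was sequenced. Per the file headers, the authors deposited 1 table with a raw count and an FPKM value per gene and library. The deposited FPKM equalled counts per kilobase of gene length and per unit of a depth proportional to DESeq2 size factors. Group means of normalized counts are kept as a signal made by the authors, beside the authors' log2 fold changes and p-values. DESeq2 1.16.1 is named in the submitters' processing notes. The authors deposited a score for each protein pair. Which aligner and counter were used, and whether strand was, is not given in these sources. The notes name mm9, but starts and ends were identical in GENCODE M21 for 98.33% of the 54409 identifiers it also holds, so coordinates are GRCm38.

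Counts were fitted with edgeR 4.0.16 in R 4.3.3 (filterByExpr defaults, TMM, robust quasi-likelihood F test, two-sided, group alone) on all genes, with Benjamini-Hochberg adjustment over the 16078 genes tested and a threshold of 0.05. The members and gene lists were chosen with earlier results of these data known. Named genes were, per cluster, the 3 coding genes of the highest FPKM, the highest paralogue number tested and the 2 highest antisense rows, then the group 1 genes, the 3 smallest p in each direction, Dpf2, and the 3 smallest p of each other list. Some genes that this rule gives are not reported here or drawn, and other genes were named after their values were seen. Two-sided exact permutation tests of 3 against 3 cannot go below 0.1, and none was used. The procedure was tested on simulated counts.

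The main fit did not pair the libraries, and replicate numbers entered only as a block in an alternative fit. The ground for that block came from the data and not the labels. Deviations of same-numbered libraries correlated with r = 0.17, 0.13 and 0.35 over genes, others with -0.24 to 0.12. The labels call the samples biological replicates without naming separate batches, so p-values measure the spread between these cultures. Alternatives were other scalings and filters, DESeq2 1.42.0, limma-voom, limma 3.58.1 on log2 FPKM with pseudocounts of 1 and 0.1, a replicate block, each library left out, and both replicates numbered 3 left out, the last chosen after seeing the data.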

Additional observations from a re-analysis of the deposited data

How the results depend on the processing

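Under the 15 alternatives 0 Hox members were called (lowest adjusted p 0.0696, Hoxc8 without Baf45d replicate 3). Members at an unadjusted p under 0.05 numbered 2 as reported, 1 to 10 when each library was left out, and 7 without both replicates numbered 3. With the replicate block there were again 2 members, and 1 gene was called over the whole table. The whole-table count, 0 as reported, was 10 without a filter on low counts, 2 with limma on log2(FPKM + 0.1), 20 without both replicates numbered 3, and 0 to 44 when each library was left out. At a threshold of 0.1 FPKM, 8 Hoxd genes in the NC group and 7 in the Baf45d group were detected, in place of 5 in each. Of 24 named genes, 10 kept their sign throughout. For the log2 fold changes that changed sign, the cause was not tested. Over the omissions of 1 library they ran from -0.12 to 0.17 for Hoxa6, -0.77 to 0.01 for Hoxa13, -0.15 to 0.13 for Hoxb6, -0.21 to 0.05 for Hoxb13, -0.08 to 0.31 for Hoxc4, -0.01 to 0.29 for Hoxc6, -0.04 to 0.13 for Hoxc5, -0.13 to 0.16 for Hoxc9, -0.31 to 0.03 for Hoxd9, -0.20 to 0.41 for Hoxd13, -0.05 to 0.09 for Hoxaas3, -0.09 to 0.15 for Hoxaas2, -0.16 to 0.20 for Hoxb3os and -0.02 to 0.24 for Hoxd3os1. With limma-voom, Hoxb6, Hoxc9 and Hoxaas2 stood at -0.01 and Hoxb3os at -0.02. On log2(FPKM + 1), Hoxb6, Hoxaas2 and Hoxb3os stood at -0.01, and on log2(FPKM + 0.1) Hoxb6 and Hoxaas2 at -0.01, Hoxb3os at -0.02 and Hoxc9 at -0.00086. With the replicate block Hoxb6 and Hoxb3os stood at -0.01 and Hoxaas2 at -0.0048, and without a filter Hoxaas2 at -0.0044. Without both replicates numbered 3, Hoxd9 stood at 0.02 and Hoxd13 at -0.13. The depth limits members under 1 FPKM, whose intervals reach past a 1.5-fold change. The intervals of Hoxb1, Hoxb2, Hoxc8 and the Hoxd4 row ENSMUSG00000115956 did so too, at means of 1.21 to 18.7 FPKM over the 6 libraries.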
